A study of Mus musculus with 12 samples.

Results

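The genes described here make, supply, cut and bind hyaluronan, the long sugar polymer of the extracellular matrix. They were the 9 rows of the gene-by-cell matrices with the symbols Has1, Has2, Ugdh, Hyal1, Hyal2, Cd44, Ptx3, Tnfaip6 and Vcan, of 27998 genes in all, chosen by what their products are known to do, by a rule that uses no measured value, although earlier results of these data were known. They were read in single cells of the fourth mammary glands of C57BL/6J mice, in 12 droplet libraries with 1 library per group. Intact mice kept their ovarian follicles, and the mice of the other 11 groups were given 4-vinylcyclohexene diepoxide (VCD), which destroys small follicles and so models menopause, at 160 mg/kg/day for 15 days by intraperitoneal injection from 9 weeks of age.

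The VCD mice were divided by hormone and by a mixture of polybrominated diphenyl ethers (PBDEs, flame retardants) in the food. Of the 9 groups in the layout of hormone by PBDE, 3 had no hormone (VCD_Vehicle, VCD_Low_PBDE, VCD_High_PBDE), 3 had estradiol (E2) at 1 µg per animal per day for 1 week (VCD_E2, VCD_Low_E2, VCD_High_PBDE_E2), and 3 had the same E2 with progesterone (P4) at 1 mg per animal per day (VCD_E2_P4, VCD_Low_E2_P4, VCD_High_PBDE_E2_P4). Low PBDE was 0.05 mg/kg/day for 20 weeks and high PBDE was 1 mg/kg/day for 1 week, each stated for one congener of the mixture, which ties dose to duration. Groups without PBDE ate matched food with the solvent DMSO, and those without hormone were injected with sesame oil. In VCD_E2_ICI the estrogen receptor antagonist ICI was given once, at 5 mg per animal, with E2. VCD_Vehicle_NormEnv had no hormone and no PBDE, and its labels do not explain NormEnv. All mice were 43 weeks old, and how many animals went into a library was not stated. The p-values below therefore rest on spread among libraries that may be technical. In comparisons of fibroblast gates it is the spread left after library is fitted as a block. In the hormone comparisons it is the spread left after hormone and PBDE. Each combination there had 1 library, so any hormone difference that varied with PBDE is part of that spread. The test of whether hormone differences differ between gates has no PBDE term. There the spread is that among gates within libraries, left after library and gate by hormone, and any gate difference that varied with PBDE is part of it.

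Hyaluronan is built at the plasma membrane by the synthases Has1 and Has2 from 2 nucleotide sugars. Ugdh makes one of them, UDP-glucuronic acid, and the hexosamine pathway (Gfpt1, Gfpt2, Gnpnat1, Pgm3, Uap1) makes the other, UDP-N-acetylglucosamine. Hyal1 in lysosomes and Hyal2 at the cell surface cut the chain, and Cd44 is the main receptor for it on leukocytes and on many other cells. Tnfaip6 (TSG-6) moves protein heavy chains onto hyaluronan, Ptx3 (pentraxin 3) ties those modified chains together, and versican (Vcan) is the large proteoglycan that binds hyaluronan through its head domain. In the mammary gland this matrix lies in the stroma that fibroblasts make around the ducts and between adipocytes.

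On the mouse assembly GRCm38 with GENCODE M21 annotation, Has1 lies at chr17:17843323-17855205 (minus strand) and Has2 at chr15:56665627-56694539 (minus). Ugdh lies at chr5:65413221-65435949 (minus), Ptx3 at chr3:66219910-66225805 (plus), Tnfaip6 at chr2:52038009-52056686 (plus) and Cd44 at chr2:102811141-102901665 (minus). Vcan lies at chr13:89655312-89742509 (minus). Hyal2 (chr9:107567945-107572779) and Hyal1 (chr9:107576927-107581710) are neighbours on the plus strand of chromosome 9. The counts were made against whole genes, without regard to isoform.

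RefSeq promoter windows on GRCm38.p6, from 250 bases before the start of the gene to 50 after it, were matched for 8 of the 9 genes. Both strands were searched for the AP-1 element TGANTCA, the cyclic AMP response element TGACGTCA, the NF-kB consensus and the palindromic consensus estrogen response element. The first 270 bases of 4 windows are printed 5′ to 3′ on the strand of the gene, with motif letters in capitals. These are the windows of Has1, Tnfaip6 and Ptx3, which held a motif, and that of Vcan. Vcan had the largest estradiol difference in the gates used here. The Hyal2 window, which also held a motif, and the windows without one other than that of Vcan are not printed.
Has1 promoter, chr17:17855169-17855438, minus strand: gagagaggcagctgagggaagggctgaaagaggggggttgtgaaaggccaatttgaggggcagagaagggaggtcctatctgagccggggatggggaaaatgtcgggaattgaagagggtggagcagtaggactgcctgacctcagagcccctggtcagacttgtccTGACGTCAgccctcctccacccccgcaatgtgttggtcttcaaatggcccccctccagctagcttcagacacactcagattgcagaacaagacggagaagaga
Tnfaip6 promoter, chr2:52037863-52038132, plus strand: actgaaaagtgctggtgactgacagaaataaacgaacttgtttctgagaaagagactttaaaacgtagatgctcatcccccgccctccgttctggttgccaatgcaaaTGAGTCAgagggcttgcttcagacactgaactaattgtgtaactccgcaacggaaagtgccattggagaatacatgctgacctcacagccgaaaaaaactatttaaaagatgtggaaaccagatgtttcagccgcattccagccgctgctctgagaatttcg
Ptx3 promoter, chr3:66219637-66219906, plus strand: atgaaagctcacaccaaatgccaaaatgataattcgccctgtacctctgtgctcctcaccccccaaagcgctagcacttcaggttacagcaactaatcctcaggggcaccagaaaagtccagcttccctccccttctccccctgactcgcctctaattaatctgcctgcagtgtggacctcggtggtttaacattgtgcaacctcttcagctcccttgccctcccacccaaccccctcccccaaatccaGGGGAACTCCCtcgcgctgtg
Vcan promoter, chr13:89742493-89742762, minus strand: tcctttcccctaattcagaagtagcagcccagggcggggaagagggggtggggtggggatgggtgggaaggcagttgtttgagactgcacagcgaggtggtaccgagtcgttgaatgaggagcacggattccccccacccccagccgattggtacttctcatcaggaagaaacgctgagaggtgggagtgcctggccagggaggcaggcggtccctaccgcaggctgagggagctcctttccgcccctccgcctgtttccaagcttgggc
The Has1 window held the cyclic AMP response element at -83 from the start, and that element was in 1.79% of all 32851 promoter windows. The Tnfaip6 window held an AP-1 element at -142 (7.81% of all windows), and the Ptx3 window held 2 overlapping NF-kB matches across the start (8.46%). The Hyal2 window also held an NF-kB match, at -238. That window, chr9:107568913-107569212, lies inside the span given above for Hyal2, so that its RefSeq start is not the start of that span. The Vcan, Ugdh, Cd44 and Hyal1 windows held none of the 4 motifs, and the estrogen response element, in 0.07% of all windows, was in none of the 8. A match is a match of letters and does not show a bound factor, and no match says only that these letters are not in the window.

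The 12 libraries held 58620 barcodes with 41737881 to 109224969 unique molecular identifiers (UMIs) per library, and 46257 cells passed the filters. Of these, 31326 were fibroblasts and 5202 were immune cells, and 740 of 57499 barcode sequences (1.29%) occurred in at least 2 libraries. Fibroblasts were sorted into 4 gates by a score of a few marker genes: 10670 cells in the Dpp4 gate (Dpp4, Pi16, Anxa3), 5414 in the Fabp4 gate (Fabp4, Lpl), 3212 in the Tnc gate (Tnc, Mfap4, Postn) and 3869 in the Gdf10 gate (Gdf10, F3). For the score, the level of each marker in a cell was divided by its mean over fibroblasts, and the markers of a gate were averaged. A gate is a range of a score and not a cell type, and 2899 of the 31326 fibroblasts (9.25%) lay near the margin between gates. The median cell of the Dpp4 gate held 73 UMIs of Pi16 and 0 of Fabp4, Tnc, Mfap4, Gdf10 and F3, while the median cell of the Tnc gate held 23 UMIs of Postn, 1 of Tnc, 10 of Lpl and 1 of Pi16. Levels are given as CPM, the UMIs of a gene per 1000000 UMIs of all cells of a gate in a library, and none of the 9 genes was used to define a gate.

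Has1 and Has2, the synthase genes, were highest in Dpp4-gated fibroblasts in all 12 libraries. Has1 stood at 1826 CPM there (1287 to 3229 across libraries, median 1683), against 767 in the Gdf10 gate, 658 in the Tnc gate and 317 in the Fabp4 gate. The Has1 level was lowest in the Fabp4 gate in 12 of 12 libraries, and the Tnc and Gdf10 gates between these ends overlapped. Has2 followed at 167 CPM in the Dpp4 gate (76.7 to 271, median 165) and at 51.6, 44.3 and 42.1 CPM in the Gdf10, Fabp4 and Tnc gates. In the edgeR quasi-likelihood fit of the 12 libraries with library as a block, Has1 was 3.30-fold higher in the Dpp4 gate than in the mean of the other gates (log2 difference 1.72, SE 0.14, adjusted p = 1.1e-13), and Has2 was 4.26-fold higher (log2 2.09, SE 0.17, adjusted p = 2.4e-13). Here and below a gene is called where its adjusted p is under 0.05. Has3, the other synthase gene, was near absent, at 0.2 CPM of all fibroblasts.

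Ugdh, the enzyme that makes UDP-glucuronic acid, separated the gates most cleanly. Its level ran from 1984 to 4022 CPM in the Dpp4 gate (median 2556), and the lowest of those 12 values lay above the highest of any other gate. The pooled levels in the Gdf10, Fabp4 and Tnc gates were 884, 707 and 506 CPM, and the difference of the Dpp4 gate from the others was 4.19-fold (log2 2.07, SE 0.09, adjusted p = 6.9e-22, edgeR). Of the 9 genes, 6 were higher and 2 lower in the Dpp4 gate, when 72.9% of the 11857 genes tested were called, 37.8% higher and 35.1% lower. The median log2 difference was 1.17 over the 9 genes and 0.01 over all genes.

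**Figure D1:**
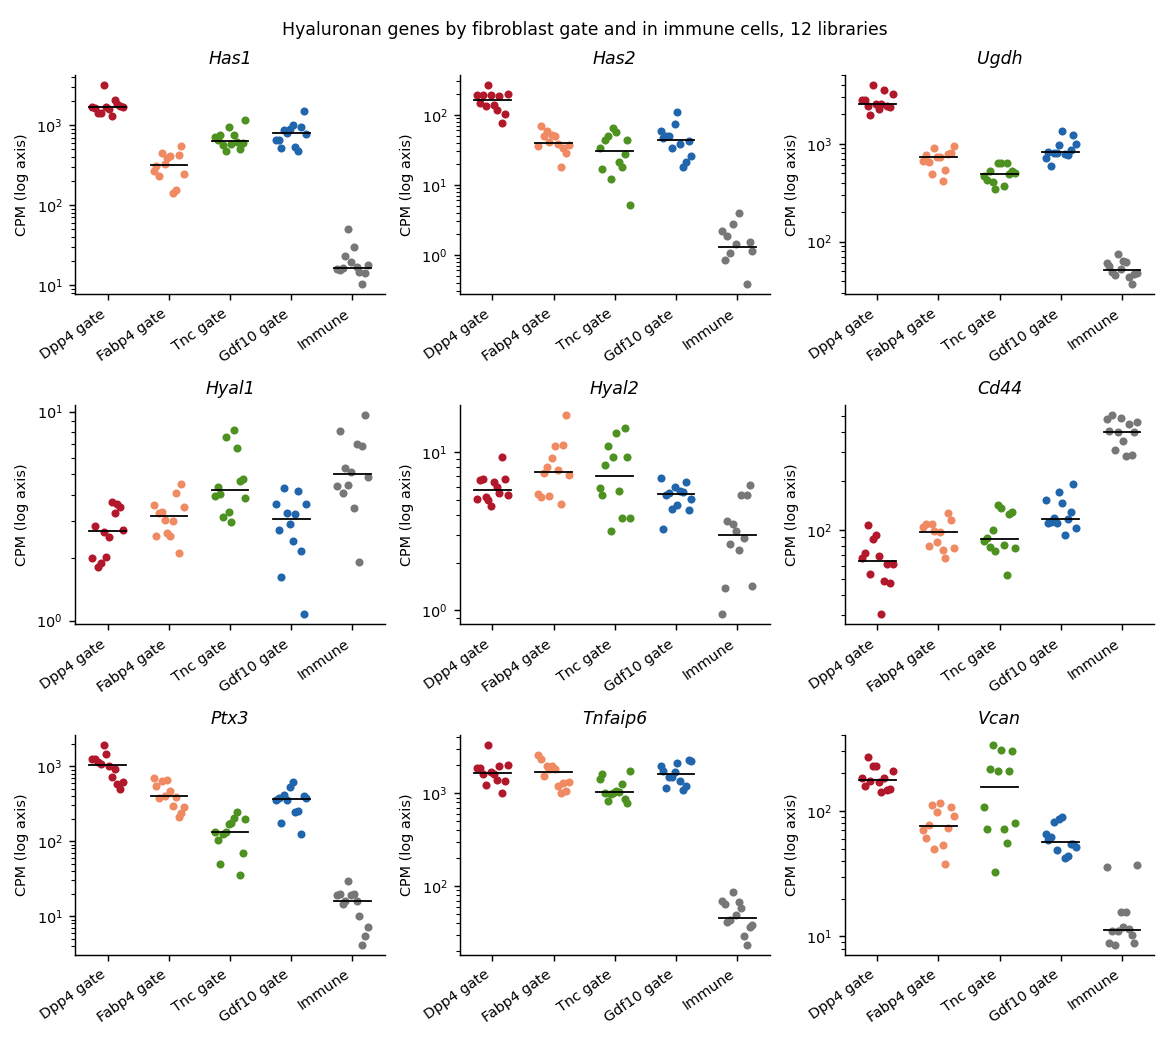
Each panel shows 1 gene, with its level in CPM on a log axis for the 4 fibroblast gates and the immune cells; each point is 1 of the 12 libraries and the bar is the median, and libraries at 0 (Has2 in immune cells) are not drawn. Has1, Has2, Ugdh and Ptx3 sit highest in the Dpp4 gate, and Cd44 sits highest in immune cells.

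Other enzymes of precursor supply were read beside Ugdh. Of 7 genes on both sugar branches, 5 were higher in the Dpp4 gate and 1 lower, beside the 37.8% and 35.1% of all genes, with a median log2 difference of 1.52. Gnpnat1 (152 CPM in the Dpp4 gate, log2 difference 2.18), Uap1 (854 CPM, 2.03) and Gfpt2 (876 CPM, 1.93) belong to the hexosamine pathway. Ugp2, which makes the UDP-glucose that Ugdh uses, stood at 262 CPM and was higher by 1.52 on the log2 scale. Pgm3 was higher by 0.60, Pgm2 was lower (-0.28), and Gfpt1, which catalyses the same step as Gfpt2, had a log2 difference of 0.08 and was not called.

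**Figure D2:**
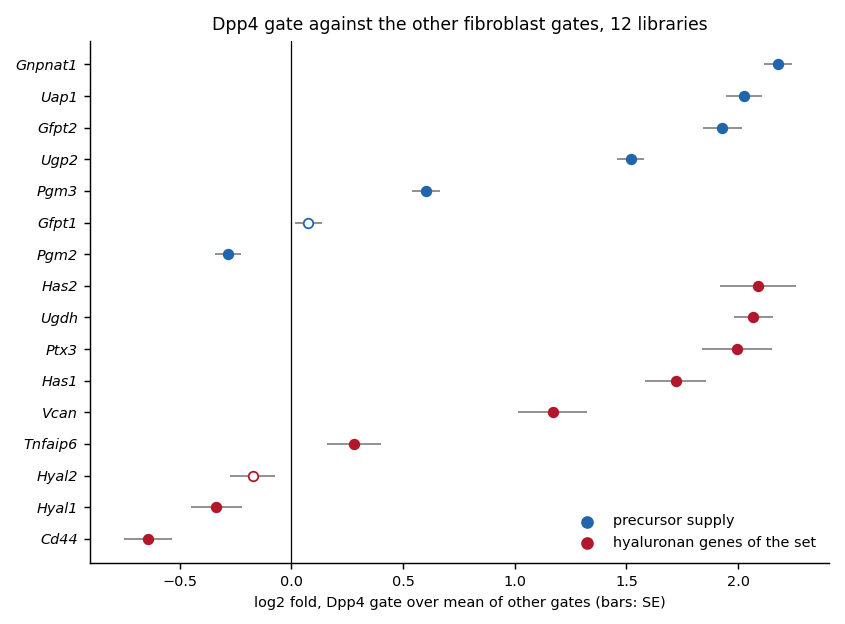
Log2 difference (horizontal axis) of Dpp4-gated fibroblasts from the mean of the other gates for the 9 genes (red) and for the 7 genes of precursor supply (blue), with SE bars from the edgeR fit of 12 libraries; filled points have an adjusted p under 0.05 and open points do not. Ugdh, Has2, Gnpnat1, Uap1 and Gfpt2 lie near a log2 difference of 2.

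The 2 hyaluronidases were low in every gate. Hyal1 stood between 2.66 CPM (Dpp4 gate) and 4.03 CPM (Tnc gate) and was highest among the gates in the Tnc gate in 11 of 12 libraries. Its log2 difference was 0.51 in the Tnc gate (SE 0.13, adjusted p = 0.0013, edgeR) and -0.34 in the Dpp4 gate (SE 0.11, adjusted p = 0.008). The Hyal1 levels rest on few counts, 6 to 38 UMIs a library in the Tnc gate and 25 to 69 in the Dpp4 gate. Hyal2 stood at 9.51 CPM in the Tnc gate, 7.72 in the Fabp4 gate, 5.90 in the Dpp4 gate and 5.20 in the Gdf10 gate in the pooled cells. By library medians the Fabp4 gate (7.51 CPM) lay above the Tnc gate (7.09), and the Tnc gate was the highest in 5 libraries and the lowest in 4. Its small differences were called higher in the Fabp4 gate (log2 0.28) and in the Tnc gate (0.28) and lower in the Gdf10 gate (-0.39). The Tnc-gate call of Hyal2 was lost without any one of VCD_E2, VCD_E2_P4, VCD_High_PBDE_E2, VCD_Low_E2 and VCD_Low_E2_P4 (adjusted p = 0.06 to 0.2). The Fabp4-gate call was lost without VCD_High_PBDE_E2_P4 (adjusted p = 0.083) and the Gdf10-gate call without VCD_Low_E2_P4 (adjusted p = 0.053).

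Ptx3, which ties hyaluronan chains together, was highest in the Dpp4 gate and lowest in the Tnc gate in all 12 libraries. Its level was 1110 CPM in the Dpp4 gate (504 to 1929, median 1048), 449 in the Fabp4 gate, 368 in the Gdf10 gate and 125 in the Tnc gate. The log2 difference was 1.99 for the Dpp4 gate (SE 0.16, adjusted p = 1.4e-13, edgeR) and -2.13 for the Tnc gate (SE 0.20, adjusted p = 3.6e-11). Tnfaip6, whose product works with Ptx3, was spread more evenly, at 1813 CPM in the Dpp4 gate, 1738 in the Fabp4 gate, 1649 in the Gdf10 gate and 1037 in the Tnc gate. The order of the first 3 of these gates changed from library to library. The Tnfaip6 level in the Tnc gate was the lowest in 10 of 12 libraries (log2 -0.66, SE 0.13, adjusted p = 4e-05). Its difference in the Dpp4 gate (log2 0.28, SE 0.12, adjusted p = 0.036) was lost without VCD_Low_PBDE, where the log2 value was 0.16 (adjusted p = 0.22), and without VCD_E2, VCD_High_PBDE, VCD_Low_E2 or VCD_Vehicle_NormEnv (adjusted p = 0.051 to 0.088).

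Vcan, the hyaluronan-binding proteoglycan, had 2 high gates in the pooled cells, which mix the hormone groups. Its pooled level was 227 CPM in the Tnc gate and 188 CPM in the Dpp4 gate, against 78.0 in the Fabp4 gate and 63.3 in the Gdf10 gate. By library medians the Dpp4 gate (177 CPM) lay above the Tnc gate (156). The Dpp4 gate was the highest in 8 libraries and the Tnc gate in the other 4. Those 4 were all given E2: VCD_E2_P4, VCD_Low_E2_P4, VCD_High_PBDE_E2 and VCD_High_PBDE_E2_P4. In VCD_Vehicle, VCD_Low_PBDE and VCD_High_PBDE, without hormone, the Tnc gate was at 32.5 to 71.3 CPM. The Fabp4 gate was at 37.4 to 60.4, the Gdf10 gate at 43.6 to 58.2 and the Dpp4 gate at 157 to 228 CPM in the same libraries. Across the 12 libraries Vcan ran from 141 to 271 CPM in the Dpp4 gate and from 32.5 to 335 CPM in the Tnc gate, a spread taken up below with the hormone groups. The log2 differences were 1.17 for the Dpp4 gate (SE 0.15, adjusted p = 2.5e-08, edgeR), 0.54 for the Tnc gate (SE 0.16, adjusted p = 0.0051) and -1.04 for the Gdf10 gate (SE 0.18, adjusted p = 1e-05). When Postn was left out of the genes that define the Tnc gate, the Tnc-gate difference of Vcan was 0.33 and was not called (adjusted p = 0.1).

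Cd44, the receptor, went the other way among fibroblasts. It was lowest in the Dpp4 gate at 67.7 CPM (30.2 to 108, median 64.6), which was the lowest gate in 9 of 12 libraries. It was highest in the Gdf10 gate at 127 CPM (93.1 to 193, median 117), which was the highest gate in 12 of 12 libraries. The log2 difference was 0.66 in the Gdf10 gate (SE 0.10, adjusted p = 2e-06, edgeR) and -0.64 in the Dpp4 gate (SE 0.11, adjusted p = 1.9e-06). Over the other gates, 1 of the 9 genes was higher and 4 were lower in the Fabp4 gate (59.1% of all genes called, 28.1% higher and 31.1% lower), 3 were higher and 4 lower in the Tnc gate (55.2%; 26.9% and 28.4%), and 1 was higher and 2 were lower in the Gdf10 gate (43.1%; 21.9% and 21.2%). In the Fabp4 gate the lower genes were Has1 (log2 -1.68), Vcan (-0.68), Ugdh (-0.62) and Has2 (-0.57), the last lost with a gate margin of 4 (adjusted p = 0.14) and without Postn in the Tnc gate (0.084), and in the Tnc gate they included Ugdh (-1.36) and Has2 (-1.13).

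Of 21 listed genes for other hyaluronan-binding proteins, 7 were tested in fibroblasts, and 3 were higher and 2 lower in the Dpp4 gate, a share near the 72.9% of all genes called there. Stab1 (log2 2.44), a scavenger receptor, and the pattern receptors Tlr2 (1.62) and Tlr4 (0.74) were higher, and Itih2 (-4.76), a heavy chain that Tnfaip6 can transfer, and the membrane lectin Layn (-1.72) were lower. Stab1 and Itih2 were low, at 2.94 and 0.105 CPM in the Dpp4 gate. Itih5, another heavy-chain gene, was abundant in all fibroblasts at 687 CPM and did not pass the test (log2 0.07). Of 4 breakdown genes tested, none was higher and all 4 were lower in the Dpp4 gate, led by the surface hyaluronidase gene Tmem2 (-0.68) and the lysosomal Hexa (-0.57), beside the 35.1% of all genes that were lower. Of 5 versican-cleaving proteases tested, Adamts5 (1.01), Adamts15 (0.73), Adamts9 (0.61) and Adamts1 (0.52) were higher and Adamts4 (-1.76) was lower, so that all 5 were called, 4 of them in the direction of the 37.8% of all genes.

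Glands had been dissociated with warm collagenase, and the summed level of 13 immediate early and heat shock genes, such as Fos and Jun, differed between gates. The library medians of the sum were 12344 CPM in the Dpp4 gate, 18002 in the Tnc gate, 21461 in the Gdf10 gate and 27598 in the Fabp4 gate. In the Dpp4 gate 2 of these 13 genes were higher and 10 lower, beside 37.8% and 35.1% of all genes, with a median log2 difference of -0.71. Their part in the gate differences was not tested.

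In immune cells the receptor was the only one of the 9 genes that stood above all fibroblast gates without overlap. Cd44 was at 404 CPM in immune cells (284 to 512, median 403) and above every fibroblast gate in 12 of 12 libraries. It was highest in monocyte-gated cells at 714 CPM, then in dendritic (390), macrophage (286), T (274), B (259) and NK cells (108), and it was at 29.4 CPM in endothelial and 36.1 CPM in luminal cells. Vcan was a monocyte gene among leukocytes, at 112 CPM in 419 monocyte-gated cells (95% exact Poisson interval 103 to 122) against 2.81 in macrophages and 2.70 in T cells. Over libraries the monocyte level of Vcan ran from 53.6 to 211 CPM in 9 to 64 cells, with the highest in VCD_E2_ICI and 176 CPM in the Intact library.

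The highest levels of both hyaluronidases were outside the fibroblasts. Hyal2 was at 60.8 CPM in 125 endothelial cells (interval 50.7 to 72.2), at 11.3 CPM in macrophages and at 3.06 CPM over all immune cells. Hyal1 was at 14.6 CPM in 723 macrophages (interval 12.2 to 17.3), more than in any fibroblast gate. Lyve1, the receptor known from lymphatic endothelium and resident macrophages, was at 2417 CPM in endothelial cells and 263 CPM in macrophages. The intervals cover counting error only.

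Has1, Ugdh, Tnfaip6 and Ptx3 were seen at like low levels in every immune class. Has1 was between 15.5 and 38.4 CPM over the 6 classes, Ugdh between 41.5 and 82.7, Tnfaip6 between 41.3 and 83.9 and Ptx3 between 12.2 and 21.1. Luminal epithelial cells had library medians of 39.7 CPM of Ugdh, 54.0 of Tnfaip6, 13.1 of Ptx3 and 13.8 of Has1. VCD_High_PBDE_E2_P4 stood apart there with 2 luminal cells, at 1430 CPM of Ugdh, 1025 of Tnfaip6 and 540 of Has1, and the Ugdh levels of the other libraries were 22.7 to 53.7 CPM. With every cell thinned to 5000 UMIs, 84.6% of 10150 Dpp4-gated fibroblasts and 10.4% of 3459 immune cells held a Has1 UMI, and 81.7% and 22.5% held a Tnfaip6 UMI. The unthinned shares for Has1 were 89.7% at a median of 18687 UMIs per cell and 18.3% at a median of 6918, those for Tnfaip6 were 91.3% and 35.3%, and 520 and 1743 cells were too shallow to thin. No background was measured apart from cells, and whether the immune and luminal UMIs of these 4 genes came from those cells was not tested, so that they are not read as expression.

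Within the Dpp4 gate, as in the other gates, cells that held a Has1 UMI more often held other genes of the set too. Among 10150 thinned cells, 8586 held Has1. Ptx3 was found in 65.0% of the cells with Has1 and 28.8% of those without, Has2 in 41.3% and 17.6%, and Tnfaip6 in 87.3% and 50.8%. For Ugdh the shares were 98.2% and 85.7%, for Cd44 22.2% and 11.9%, and each of these 5 genes was more often found with Has1 in 12 of 12 libraries. For Vcan the shares were 52.1% and 48.6%, in that direction in 9 of 12 libraries. In the Fabp4, Tnc and Gdf10 gates the shares of all these genes went in the same direction. Tnfaip6 and Ugdh did so in 12 of 12 libraries of each of those gates. No gene outside the set is given for comparison. The shares are a description, since cells of a library are not replicates.

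The genes most like each member were looked for over the 60 sums of 12 libraries by 4 fibroblast gates and immune cells, among the 5765 genes whose mean level reached 20 CPM. Pearson r of log2(CPM + 1) was highest with Cd34 (0.974), Epb41l2 and Flrt2 for Has1, with Rock2 (0.956), Cd248 and Adgrd1 for Has2, and with Heg1 (0.984), Gfpt2 (0.984) and Adgrd1 (0.982) for Ugdh. For Ptx3 they were Lrrn4cl (0.942), Ebf2 and Mt2, for Tnfaip6 Medag (0.981), Clec3b and Adamts1, for Cd44 Plaur (0.937), Pde4b and Tpd52, and for Vcan Ipo4 (0.912), Rassf8 and Fbn1. The points share libraries and fall into fibroblasts and immune cells, and within the populations r was lower, between 0.129 (Has1 with Flrt2) and 0.65 (Vcan with Fbn1), and 0.269 for Has1 with Cd34. Hyal1 and Hyal2 were below the level asked for.

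Whether ovarian hormones changed these genes was asked in the 9 VCD libraries of the layout, within each gate. The E2 difference is the mean of the E2 and the E2 + P4 libraries less that of the libraries without hormone, and the P4 difference is E2 + P4 less E2 alone. PBDE was an additive term, which left 4 residual degrees of freedom. E2 and P4 contrasts share the E2 libraries.

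In the gates as defined above, the largest estradiol difference of the set was that of Vcan in Tnc-gated fibroblasts, although that of Has2 was larger with a gate margin of 4 and without Postn. Vcan was at 71.3, 32.5 and 55.6 CPM in VCD_Vehicle, VCD_Low_PBDE and VCD_High_PBDE. It was at 215, 206 and 209 CPM in the E2 libraries and at 335, 303 and 300 CPM in the E2 + P4 libraries, each in the order of no, low and high PBDE. The 3 hormone groups did not overlap, whatever the PBDE. Here and below a lack of overlap is a description, since the share of all genes whose groups separate so is not given. The E2 difference was 4.84-fold (log2 2.27, SE 0.18, adjusted p = 2.1e-05, edgeR), and it was called in all 18 alternatives, between 1.71 and 2.68 on the log2 scale. Among cells thinned to 5000 UMIs, 11.7 to 20.1% of Tnc-gated cells held a Vcan UMI without hormone, 47.1 to 51.7% with E2 and 57.5 to 69.0% with E2 + P4. Thinning left out 15 to 41, 7 to 10 and 9 to 246 shallower cells a library in these groups, and the shares over all cells were 21.1 to 28.8%, 77.0 to 81.5% and 73.6 to 95.0%.

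Has2 and Hyal2 were also higher with estradiol in this gate, a synthase and a hyaluronidase together. Has2 was at 16.6, 11.9 and 18.2 CPM without hormone, at 44.3, 65.1 and 27.3 with E2 and at 49.9, 56.1 and 43.2 with E2 + P4. All 6 hormone libraries lay above the 3 without (3.12-fold, log2 1.64, SE 0.27, adjusted p = 0.003, edgeR), and the call held in 18 of 18 alternatives. The size of the Has2 difference moved with the gate, from 0.76 on the log2 scale with no margin between gates to 3.78 with a margin of 4. Hyal2 was at 5.32, 3.17 and 3.83 CPM without hormone, at 8.28, 9.28 and 14.1 with E2 and at 10.9, 13.2 and 9.26 with E2 + P4. Those levels rest on 4 to 132 UMIs a library, the libraries without hormone did not overlap with the others, and the log2 difference was 1.29 (SE 0.31, adjusted p = 0.011), lost without VCD_Low_PBDE (log2 1.04, adjusted p = 0.1) and with the name tag as a covariate (log2 1.06, adjusted p = 0.095). The tag is a part of the library names that splits them into 2 sets, and its meaning is not given. Has1, the more abundant synthase, had a log2 difference of 0.13 (SE 0.19, adjusted p = 0.67).

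Tnfaip6 was lower with estradiol in the Tnc gate (log2 -0.51, SE 0.15, adjusted p = 0.033, edgeR). That call was lost in 8 of 18 alternatives, with adjusted p = 0.07 to 0.21 without any one of VCD_Vehicle, VCD_E2, VCD_E2_P4, VCD_High_PBDE, VCD_High_PBDE_E2 and VCD_High_PBDE_E2_P4, and without VCD_Low_PBDE the log2 value was -0.76 (adjusted p = 0.0031). In all, 3 of the 9 genes were higher and 1 was lower in the Tnc gate, where 25.3% of the 11460 genes tested were called, 13.2% higher and 12.1% lower. The median log2 difference was 0.17 over the 9 genes and 0.00 over all genes. Cd44 (log2 0.62, adjusted p = 0.059) and Hyal1 (-0.77, adjusted p = 0.079) did not pass with edgeR. DESeq2 called 5 genes in this gate, Cd44 besides the 4, and 6 of the 9 had an unadjusted edgeR p under 0.05.

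**Figure D3:**
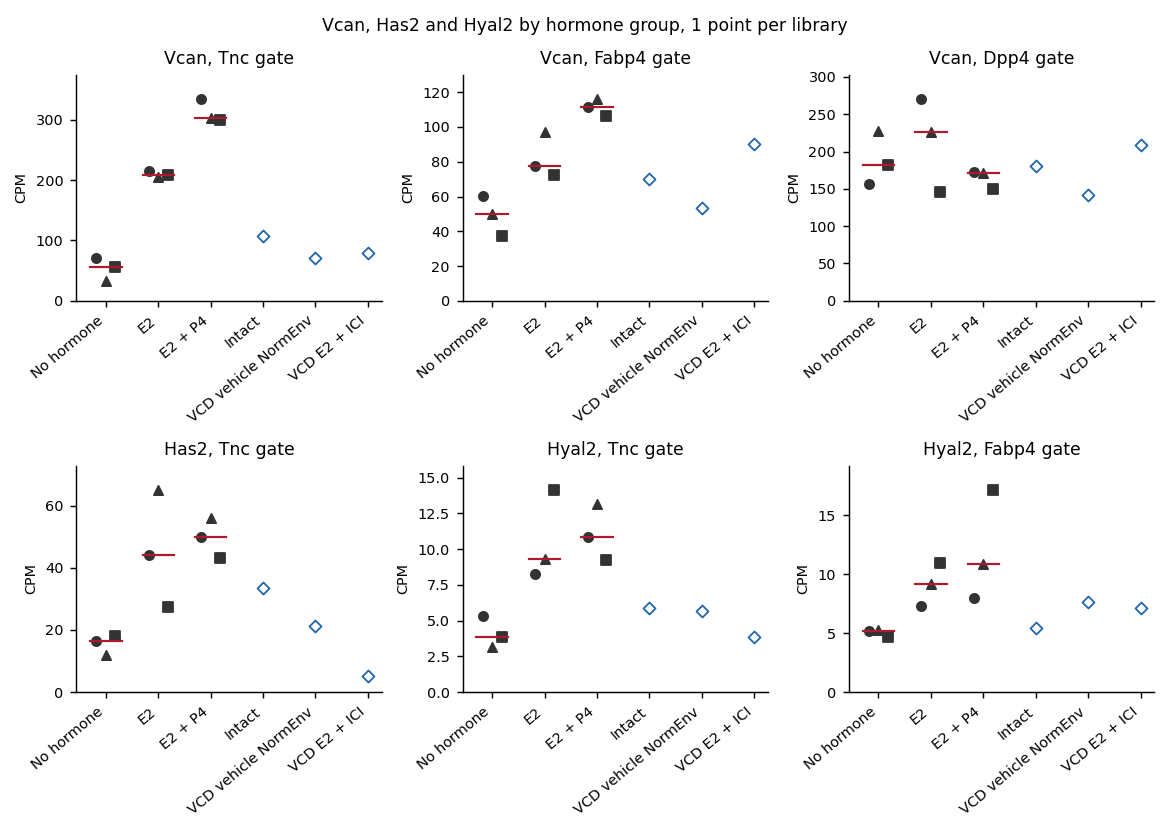
Levels in CPM of Vcan, Has2 and Hyal2 by hormone group in the gates named above the panels; filled points are the 9 VCD libraries (circle no PBDE, triangle low, square high), the red line is the median of 3 libraries, and open diamonds are the Intact, NormEnv and ICI libraries. In the Tnc gate the Vcan points rise from 32.5 to 71.3 CPM without hormone to 300 to 335 CPM with E2 + P4.

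The Tnc gate itself differed between the hormone groups in more than these genes. Postn, one of its 3 defining genes, was at 567 to 1080 CPM without hormone and at 2041 to 8612 with E2 and 6700 to 9319 with E2 + P4. Tnc was at 436 to 640, 165 to 197 and 143 to 162 CPM in the same groups, and Col1a1 at 2892 to 3237, 9186 to 13833 and 17738 to 19528 CPM. The summed immediate early genes were at 24019 to 25540 CPM without hormone, 11701 to 15583 with E2 and 9850 to 11348 with E2 + P4, and the median UMIs per cell were 7952 to 9243, 17571 to 19813 and 10149 to 28681. The part of these in the results was not tested, and cells entering the gate and RNA changing within its cells cannot be told apart. When the gate was defined by Tnc and Mfap4 alone, the log2 differences of Vcan (2.40, adjusted p = 2e-05, edgeR), Has2 (2.70) and Hyal2 (0.99) were still called.

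In Dpp4-gated fibroblasts, where Has1, Has2, Ugdh and Ptx3 were highest, the 3 genes called for estradiol were lower. Ugdh was at 2804, 4022 and 3533 CPM in VCD_Vehicle, VCD_Low_PBDE and VCD_High_PBDE. It was at 2448, 2543 and 2440 CPM with E2 and at 1984, 2264 and 2390 CPM with E2 + P4, so that all 6 hormone libraries lay below the 3 without, and below the 2568 CPM of the NormEnv library. The log2 difference was -0.56 (SE 0.10, adjusted p = 0.012, edgeR). It was lost without VCD_Low_PBDE, the library with the highest level of Has1, Has2, Ugdh, Ptx3 and Tnfaip6 in this gate, where the log2 value was -0.43 (adjusted p = 0.073), and with the name tag as a covariate (adjusted p = 0.071).

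Tnfaip6, the heavy-chain transferase, was at 1893, 3327 and 1993 CPM without hormone, at 1608, 1703 and 1006 with E2 and at 1241, 1608 and 1346 with E2 + P4. The libraries of the layout without hormone did not overlap with the others (log2 -0.75, SE 0.15, adjusted p = 0.026, edgeR), but the NormEnv library, also without hormone, was at 1393 CPM, among the hormone libraries. The call was lost without VCD_Low_PBDE (log2 -0.57, adjusted p = 0.14) and without VCD_E2_P4, VCD_High_PBDE, VCD_Low_E2 or VCD_Low_E2_P4 (adjusted p = 0.06 to 0.092). Ptx3 was at 1239, 1929 and 930 CPM without hormone and at 504 to 1479 CPM with it. Those groups overlapped, and its call (log2 -0.55, SE 0.14, adjusted p = 0.048) held in 5 of 18 alternatives and was lost without any one of VCD_E2, VCD_High_PBDE, VCD_High_PBDE_E2, VCD_High_PBDE_E2_P4, VCD_Low_E2, VCD_Low_E2_P4 and VCD_Low_PBDE (adjusted p = 0.084 to 0.23). In all, none of the 9 genes was higher and 3 were lower, where 10.1% of the 12436 genes tested were called, 5.42% higher and 4.68% lower. With the name tag as a covariate none of the 3 was called. The median log2 difference was -0.49 over the 9 genes and 0.00 over all genes.

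The synthases were not called by edgeR in the Dpp4 gate, while DESeq2 called 4 genes there, Has1 besides Ugdh, Tnfaip6 and Ptx3. Has1 was at 1620, 3229 and 2058 CPM without hormone and at 1405 to 1845 CPM with it (log2 -0.49, SE 0.16, adjusted p = 0.1, edgeR). Has2 had a log2 difference of -0.58 (SE 0.26, adjusted p = 0.22), with levels of 145, 271 and 186 CPM without hormone and 76.7 to 194 CPM with it, which overlapped. Vcan, so different in the Tnc gate, was at 157 to 228 CPM without hormone, 145 to 271 with E2 and 149 to 173 with E2 + P4 (log2 -0.04, SE 0.17, adjusted p = 0.91). The immediate early genes summed to 12016 to 12929 CPM without hormone, 12694 to 13352 with E2 and 10513 to 11419 with E2 + P4 in this gate.

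**Figure D4:**
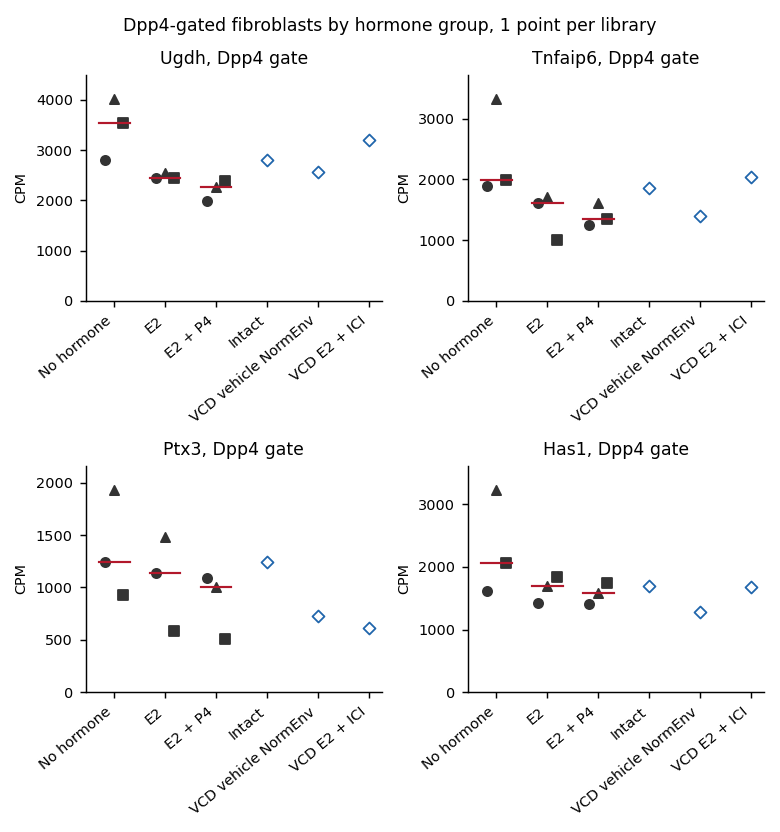
Levels in CPM of Ugdh, Tnfaip6, Ptx3 and Has1 in Dpp4-gated fibroblasts by hormone group, with points, shapes, medians and open diamonds as in the plot of Vcan by hormone. VCD_Low_PBDE (the triangle without hormone) is the highest point of each panel, and for Ugdh the 6 filled points with hormone (1984 to 2543 CPM) lie below the 3 without (2804 to 4022 CPM).

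Vcan and Hyal2 were also higher with estradiol in the Fabp4 gate, whose defining gene Fabp4 moved as well, from 1453 to 2898 CPM without hormone to 3846 to 7136 CPM with it. Vcan was at 60.4, 49.9 and 37.4 CPM without hormone, at 77.8, 97.2 and 72.5 with E2 and at 112, 116 and 107 with E2 + P4. The 3 groups did not overlap, and the log2 difference was 0.92 (SE 0.11, adjusted p = 0.0012, edgeR), called in 18 of 18 alternatives. Hyal2 was at 5.18, 5.30 and 4.72 CPM without hormone and at 7.34 to 17.2 CPM with it (log2 0.92, SE 0.18, adjusted p = 0.012), lost without VCD_Low_PBDE (log2 0.96, adjusted p = 0.061) and with the name tag as a covariate (adjusted p = 0.058). In this gate 2 of the 9 genes were higher and none lower, where 8.72% of genes were called, 5.25% higher and 3.46% lower. The immediate early sum was at 28878 to 36799 CPM without hormone, 21685 to 26319 with E2 and 19243 to 20161 with E2 + P4, and the part of these in the results was not tested. In the Gdf10 gate 1 gene, Vcan, was higher (log2 0.58, SE 0.12, adjusted p = 0.011), where 6.73% of genes were called (4.24% higher, 2.49% lower), and the call was lost without VCD_Low_PBDE or with the name tag as a covariate (log2 0.39, adjusted p = 0.12 in both), while 3 genes were called without VCD_Vehicle and 2 without VCD_E2_P4. The immediate early sum in the Gdf10 gate was at 22391 to 27894 CPM without hormone, 18481 to 21396 with E2 and 15590 to 16945 with E2 + P4, 9 of the 13 genes were lower with E2, and their part was not tested.

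**Figure D5:**
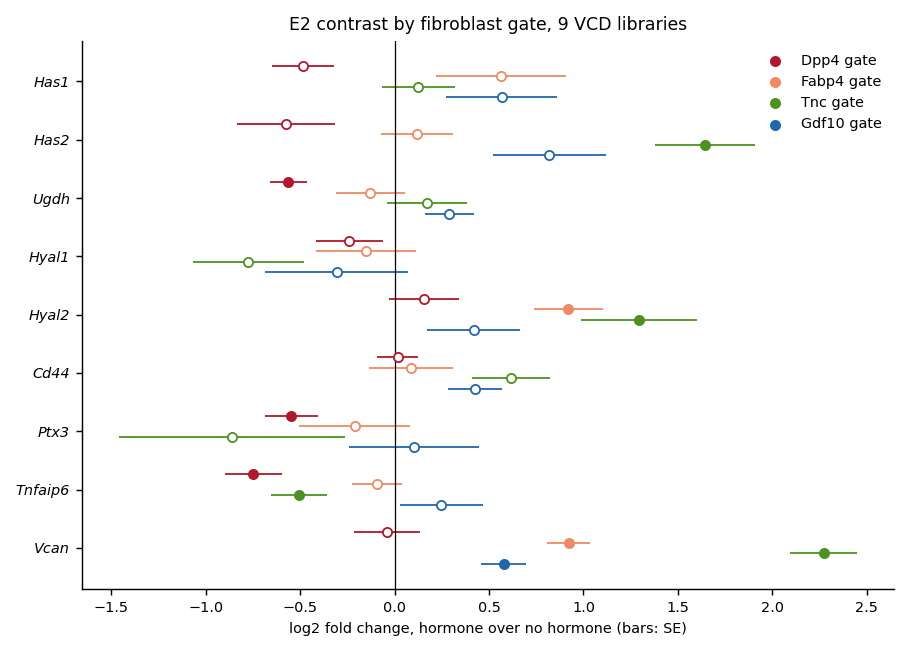
Log2 E2 difference (horizontal axis) of each of the 9 genes in the 4 fibroblast gates, with SE bars from edgeR over 9 libraries; filled points have an adjusted p under 0.05 and open points do not. Vcan runs from -0.04 in the Dpp4 gate to 2.27 in the Tnc gate, and Ugdh, Tnfaip6 and Ptx3 are called lower in the Dpp4 gate.

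Whether the E2 difference itself differed between gates was tested as an interaction in one fit of the 4 gates. That fit had terms for gate by hormone and for library, and none for PBDE. In the Dpp4 gate the E2 differences of 5 genes were lower than the mean of the other gates, and none was higher, where 15.5% of all genes were called, 7.44% higher and 8.07% lower. These were Vcan (difference in log2 change -1.31, SE 0.21, adjusted p = 0.00033, edgeR), Has2 (-1.52, SE 0.34, adjusted p = 0.0048), Hyal2 (-0.73, adjusted p = 0.018), Has1 (-0.94, adjusted p = 0.025) and Ugdh (-0.67, adjusted p = 0.031). DESeq2 called these 5 and Tnfaip6. Without VCD_Low_PBDE only Vcan of these 5 was called, without VCD_Low_E2 2 were called, and without VCD_High_PBDE, VCD_High_PBDE_E2_P4 or VCD_Low_E2_P4 3 were. In the Tnc gate the E2 differences of Vcan (1.79, SE 0.24, adjusted p = 2e-05) and Has2 (1.60, SE 0.48, adjusted p = 0.019) were higher than in the other gates, where 24.2% of all genes were called, 12.1% in each direction, and that of Has2 was lost without VCD_Low_PBDE (log2 1.36, adjusted p = 0.14) and with no margin between gates (log2 0.76, adjusted p = 0.17).

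Other genes of the pathway were read from fixed lists. In the Dpp4 gate with estradiol, 1 of 7 precursor genes was higher and 3 were lower, beside 5.42% and 4.68% of all genes, with a median log2 difference of -0.23 against 0.00 over all genes. Uap1 (log2 -0.58), Gfpt2 (-0.58) and Gnpnat1 (-0.23) were lower as Ugdh was, and Pgm2 (0.26) was higher. Of 7 binding genes tested, Hmmr (4.21), which is also a mitotic gene, Layn (1.21) and Stab1 (0.83) were higher there and none was lower. These genes were low in this gate, at 0.496 CPM for Hmmr, 5.38 for Layn and 2.94 for Stab1 over the 12 libraries. Of 4 breakdown genes the lysosomal Gusb (0.28) was higher, and of 5 versican-cleaving proteases Adamts1 (-0.58) was lower. In the Tnc gate, where 13.2% of all genes were higher and 12.1% lower, 3 of 7 precursor genes were higher, Pgm2 (0.77), Gfpt1 (0.62) and Gnpnat1 (0.39), and Gfpt2 (-0.77) was lower. Of 8 binding genes tested there, the heavy-chain genes Itih2 (2.13) and Itih5 (0.37) were higher and none was lower. Itih2 was low in this gate too, at 4.47 CPM over the 12 libraries. Of 4 breakdown genes 1 was higher, the surface hyaluronidase gene Tmem2 (0.90), and 1 was lower, with a median log2 difference of -0.09, and Adamts4 (1.19) was higher among 5 proteases. In the Fabp4 gate (5.25% of all genes higher, 3.46% lower) Gnpnat1 (0.43) was the 1 of 7 precursor genes and Adamts9 (1.32) the 1 of 5 proteases that were higher, 1 of 4 breakdown genes was lower, and 0 of 6 binding genes were called. In the Gdf10 gate (4.24% higher, 2.49% lower) Gusb (0.40) and Adamts15 (0.61) were higher, 1 of 4 and 1 of 5, and 0 of 7 precursor and 0 of 7 binding genes were called by edgeR.

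No gene of the set was called for progesterone in any gate. With edgeR 0 of 9 passed in each of the 4 gates, where 0.0885% (Dpp4), 0.0517% (Fabp4), 0.41% (Tnc) and 0.0361% (Gdf10) of all genes were called. At an unadjusted p under 0.05 there were 1, 1, 1 and 2 of the 9, and DESeq2 called 1, 0, 0 and 0, the 1 being Cd44 in the Dpp4 gate (edgeR log2 -0.53, SE 0.13, adjusted p = 0.21). In the Gdf10 gate 1 gene was called without VCD_Low_E2 and 1 without VCD_Vehicle. Vcan in the Tnc gate stood higher with E2 + P4 than with E2 in each PBDE pair (log2 0.58, SE 0.17, adjusted p = 0.21), and in the Fabp4 gate the value was 0.41 (SE 0.13, adjusted p = 0.24). Both Vcan values rest on the 6 libraries with E2. The P4 interactions held 0 of the 9 genes as well, where 2.02% (Dpp4) and 0.665% (Tnc) of all genes were called, with 3 and 1 at an unadjusted p under 0.05 and 0 and 0 by DESeq2.

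In immune cells 0 of 8 genes tested were called for E2 and 0 of 8 for P4, and 0% of all genes were called by edgeR in both. At an unadjusted p under 0.05 there were 2 and 1 of the 8, and DESeq2 called 0 and 0 of them. In macrophage-gated cells 0 of 7 were called for E2 (0.639% of all genes) and 0 of 7 for P4 (0.029%), with 2 and 0 at an unadjusted p under 0.05 and 0 and 0 by DESeq2. Cd44, the one abundant member there, had an E2 difference of -0.10 (SE 0.17, adjusted p = 0.89) over immune cells. Has2 was too low to be tested in either, and Vcan was too low in macrophages. The genes tested in both include Has1, Ugdh, Tnfaip6 and Ptx3, whose immune UMIs are not read as expression above.

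The 3 libraries outside the layout have no replicate and are given as levels. In the Tnc gate Vcan was at 107 CPM in the Intact library, 71.5 in NormEnv and 79.5 in the library given E2 with ICI, against 32.5 to 71.3 in VCD mice without hormone and 206 to 215 with E2. Has2 there was at 33.7, 21.3 and 5.13 CPM, the last from 8 UMIs (exact Poisson interval 2.22 to 10.1 CPM), and Hyal2 at 5.89, 5.65 and 3.85 CPM. With ICI all 3 genes thus lay below each of the 3 libraries with E2 in the Tnc gate. The Hyal2 value with ICI came from 6 UMIs, and its exact Poisson interval (1.41 to 8.38 CPM) reached the 8.28 CPM of VCD_E2. In the Fabp4 gate Vcan did not. It was at 90.2 CPM with ICI there, within the 72.5 to 97.2 CPM of the E2 libraries, and at 70.3 in the Intact and 53.3 in the NormEnv library. Hyal2 in the Fabp4 gate was at 5.42, 7.69 and 7.13 CPM in the Intact, NormEnv and ICI libraries, so that NormEnv, without hormone, lay above the lowest E2 library. In the Dpp4 gate Ugdh was at 2793 CPM in the Intact library, 2568 in NormEnv and 3207 with ICI, and Tnfaip6 at 1856, 1393 and 2033 CPM. Ptx3 was at 1239, 722 and 616 CPM in the same libraries, so that NormEnv and ICI lay below all 3 libraries of the layout without hormone. NormEnv had the lowest Has1 (1287 CPM), Cd44 (30.2 CPM) and Vcan (141 CPM) of the 12 libraries in that gate.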

How the data were processed

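Cells of digested mammary glands were profiled with 10x Chromium 3′ v3 kits. Per the labels and the study's methods, the authors made the deposited UMI counts with Cell Ranger 3.1.0 against mm10, and the labels and the methods name different sequencers. No file of the 12 libraries held normalized values. Cells with at least 500 genes, 1000 UMIs and at most 5% mitochondrial UMIs were kept. Fibroblasts had no UMI of 6 negative markers (Epcam, Krt14, Ptprc, Cd52, Pecam1, Cspg4), at least 1 of Col1a1 or Pdgfra, and at least 0.5% of UMIs from Col1a1, Col1a2, Col3a1 and Dcn. A cell took the gate of its highest marker score when that was at least 1 and at least 2 times the next. Immune classes (macrophage, monocyte, dendritic, T, NK, B) were gated alike among cells with at least 2 UMIs of Ptprc and Cd52. Doublets were not called; an alternative removed the cells with the most UMIs, 0.8% per 1000 barcodes.

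UMI counts were summed per library and gate and tested with edgeR 4.0.16 (TMM, filterByExpr, robust quasi-likelihood, R 4.3.3), with Benjamini-Hochberg adjustment over all genes tested and a threshold of 0.05; all adjusted p-values are from edgeR unless DESeq2 1.42.0 is named. Gate fits used 12 libraries with library as a block, and hormone fits used 9. On simulated counts with a log2 change of 1 the median log2 estimate was checked before use. Alternatives were DESeq2, no filter on low counts, other gate margins (1 or 4 times), a 10% mitochondrial limit, no negative selection, doublet removal, a name-tag covariate and leaving out each library. A Tnc gate without Postn was chosen after seeing the data. Cells were thinned to 5000 UMIs for shares. Intervals are 95% exact ones and cover counting error only. All 9 genes are named in every comparison, up to 5 genes past the threshold per other list (1 is not reported here by name), and the 3 most alike. The members and lists were chosen with earlier results of these data known.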

Additional observations from a re-analysis of the deposited data

Results flagged for a closer look

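The results given here were drawn out because the estradiol difference of a gene differed between fibroblast gates in the interaction test of edgeR. In Dpp4-gated fibroblasts the E2 difference, less the mean of the other gates, was -1.52 for Has2, -1.31 for Vcan, -0.94 for Has1, -0.73 for Hyal2 and -0.67 for Ugdh on the log2 scale. In Tnc-gated fibroblasts it was 1.79 for Vcan and 1.60 for Has2. The Vcan values were called in 17 of 17 alternatives in both gates, the Has2 values in 16 and 15, and those of Hyal2, Ugdh and Has1 in 13, 12 and 10. The 2 sets of differences share libraries and gates and are not independent of each other. Groups of 1 library were not tested for samples that stand apart.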

How the results depend on the processing

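Of 40 calls of single genes, 12 were lost without VCD_Low_PBDE, 7 without VCD_Low_E2, 6 each without VCD_High_PBDE and VCD_Low_E2_P4, 6 with the name tag as a covariate and 6 with a gate margin of 4; DESeq2 lost 1 and the Tnc gate without Postn, chosen after seeing the data, lost 4. None changed sign. With the name tag as a covariate, 0 of the 9 genes were called for E2 in the Dpp4 gate (3 without it), 1 in the Fabp4 gate (2) and 0 in the Gdf10 gate (1). DESeq2 called 4 for E2 in the Dpp4 gate (3 by edgeR), 5 in the Tnc gate (4) and 2 in the Gdf10 gate, as did a margin of 4, and 1 for P4 in the Dpp4 gate. With a margin of 1, 5 genes were called in the Gdf10 gate against the others (3 with the margin of 2) and 1 for the E2 interaction of the Tnc gate (2). Leaving out 1 library at a time, the counts for E2 ran from 0 to 3 in the Dpp4 gate, 1 to 3 in the Fabp4 gate, 0 to 3 in the Gdf10 gate and 3 to 4 in the Tnc gate. They ran from 0 to 1 for P4 in the Gdf10 gate, from 1 to 5 and from 1 to 3 for the E2 interactions of the Dpp4 and Tnc gates, and for the gates against each other from 7 to 9 (Dpp4), 4 to 5 (Fabp4), 3 to 3 (Gdf10) and 6 to 7 (Tnc). The cause of these changes was not tested. All 36 shares of cells with a UMI were larger at the deposited depth than at 5000 UMIs. PBDE level, which pairs the libraries across hormones, is a term of the hormone fits within a gate, and no replicate numbers beyond it pair the groups. The interaction fit has library terms and no PBDE term. The hormone fits within a gate have 4 residual degrees of freedom, and Hyal2 rests on 4 to 132 UMIs in a library of the Tnc gate.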
